A study of Mus musculus with 31 samples.

Results

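The genes described here are 10 immediate early response genes, *Fos*, *Fosb*, *Jun*, *Junb*, *Egr1*, *Nr4a1*, *Atf3*, *Ier2*, *Dusp1* and *Zfp36*, found by matching their symbols to the gene column of the count files. All 10 of 10 were present among the 55379 genes counted, and all 10 passed the filter on low counts, which left 14362 genes. They were listed by name, with earlier results of these data already known. RNA was measured in the mammary gland of 31 C57BL/6J dams on lactation day 10, with 1 library of polyadenylated RNA per dam. Breeder diet held 4 mg of folic acid (FA) per kg and the FA diet held 24 mg per kg, and each was eaten from 2 weeks before mating. Dams were bred from 6 weeks of age. Daily from embryonic day 13 to lactation day 10 they were injected into the peritoneum with saline or with 20 mg per kg body weight of fluoxetine, a selective serotonin reuptake inhibitor. By the labels, the dams on breeder diet were 8 with saline and 7 with fluoxetine, and those on the FA diet were 8 with each injection. The groups are called by diet and injection, as in breeder diet + saline. All groups, the saline groups included, were pregnant, lactating and injected, and all were killed with carbon dioxide and cervical dislocation. The sources used here give neither the interval between death and freezing nor the order in which glands were collected.

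Immediate early genes are transcribed soon after a cell receives a stimulus, without the need for newly made protein, and most of their mRNAs decay quickly. Growth factors, hormones, stretch and stress reach them through MAP kinases, serum response factor and CREB, which are already present in the resting cell. Their products include the subunits of the AP-1 transcription factor, which are known in this tissue for their rise when suckling stops, and proteins that end the response, such as phosphatases and mRNA decay factors. The same genes are also known to respond to the handling of a tissue before its RNA is preserved.

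Total counts lay between 15412542 and 36000439 per library. The 6 markers of secretory epithelium (*Csn2*, *Wap*, *Lalba*, *Krt8*, *Krt18* and *Elf5*) all passed the filter and summed to between 161671 and 502532 CPM, reads scaled to a common library total by TMM, in 30 dams, so the tissue label was met by its defining milk protein genes. Dam 3 of FA diet + fluoxetine stood apart with a sum of 29211 CPM. In its library the 20 most abundant genes held 39.3% of the counts, against a median of 77.1%. Its sums for markers of fibroblasts (937 CPM), macrophages and monocytes (246 CPM) and adipocytes (1045 CPM) were the highest among the 31 dams. Many values that rest on this dam, though not all, are given with and without it. Lymphocyte markers were near 0, with 1 of 6 past the filter, and neutrophil markers, with 3 of 6 past it, summed to at most 6.71 CPM. Skeletal muscle markers summed to between 0.664 and 6260 CPM. In whole tissue, fewer cells of a type and less RNA per cell cannot be told apart.

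Short stretches before the starts of 4 of the genes are shown because each holds a sequence through which immediate early genes are known to be switched on. A CArG box, bound by serum response factor, was found in the 500 bases before the GENCODE canonical start of *Fos* and of *Fosb*, and in 2.78% of the 21614 promoter windows of protein-coding genes in the files. The cAMP response element TGACGTCA, bound by CREB and its relatives, was found before *Ier2* and *Dusp1*, and in 1.95% of the windows. The pattern of each motif is the same on both strands, and both strands were searched. Neither motif was found in the windows of *Jun*, *Junb*, *Atf3*, *Nr4a1* and *Zfp36*, which says only that these letters were not in the stretch read. The same search found a site for EGR proteins before *Fosb* and *Jun* (5.45% of windows) and an AP-1 site before *Fos* (12.4%). It found TATAAA before *Fos*, *Junb* and *Nr4a1* (24.4%). The window of *Egr1* is not reported here. Only 1 annotated start per gene was used, and another start, as *Zfp36* has in the same annotation, would give another window. *Atf3*, *Dusp1*, *Nr4a1* and *Junb* also extend upstream of the start used. For *Dusp1* that start was at base 26727493, and the gene reaches to 26781102. The sequences are from GRCm39, read 5′ to 3′ on the strand of the gene, with the motif in capitals. The *Fos* box, on the plus strand of chr12:85520310-85520409, began 303 bases before the start. The *Fosb* box, on the minus strand of chr7:19044188-19044287, began 266 bases before it. The response element of *Ier2*, on the minus strand of chr8:85389484-85389571, began 43 bases before the start, and that of *Dusp1*, on the minus strand of chr17:26727537-26727634, began 96 bases before it.
Fos: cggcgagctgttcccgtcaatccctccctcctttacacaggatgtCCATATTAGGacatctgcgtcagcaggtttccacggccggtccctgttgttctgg
Fosb: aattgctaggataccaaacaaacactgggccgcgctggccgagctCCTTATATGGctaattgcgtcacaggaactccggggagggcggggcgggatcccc
Ier2: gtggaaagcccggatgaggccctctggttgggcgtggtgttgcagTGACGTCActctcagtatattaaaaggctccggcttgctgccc
Dusp1: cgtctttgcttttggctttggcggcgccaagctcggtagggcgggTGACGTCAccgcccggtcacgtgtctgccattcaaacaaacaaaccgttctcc

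All 10 genes were expressed at modest levels. Per kilobase of the canonical transcript (RPKM), *Ier2*, an early gene product that acts in transcription, was highest at 11.5 ± 3.67 (SD, n = 31). It was followed by *Zfp36* at 7.51 ± 2.32, *Fos* at 7.24 ± 5.23 and *Junb* at 5.19 ± 3.46. *Jun* stood at 3.05 ± 1.61 RPKM and *Dusp1* at 2.30 ± 1.15 RPKM. The lowest levels were those of *Atf3* at 1.16 ± 0.985, *Egr1* at 0.956 ± 0.827, *Nr4a1* at 0.801 ± 0.834 and *Fosb* at 0.392 ± 0.431 RPKM. Neighbors in this order were compared by their log2 difference within each dam. The 3 steps that exceeded 1 SD of that difference were from *Ier2* to *Zfp36*, from *Junb* to *Jun* and from *Dusp1* to *Atf3*. The other 6 steps were within the spread between dams.

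Most of these genes varied widely between dams of the same group. The SD of log2 CPM within groups was 1.28 for *Fosb* and 1.27 for *Nr4a1*, and only 3.57% and 3.68% of all genes tested had a larger SD. It was 1.01 for *Atf3*, 0.97 for *Egr1*, 0.90 for *Fos*, 0.85 for *Jun*, 0.81 for *Junb* and 0.71 for *Dusp1*. The median over all genes tested was 0.48, and *Ier2* at 0.45 and *Zfp36* at 0.42 lay just under it. *Fos* ranged over 10.3-fold among the 31 dams and *Zfp36* over 2.76-fold. No fold range is given for *Fosb* and *Nr4a1*, whose lowest libraries held 1 and 2 reads.

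None of the 10 genes was called at a false discovery rate (FDR) of 10% for fluoxetine, for FA, for their interaction or among the 4 groups by the edgeR quasi-likelihood test (Benjamini-Hochberg adjusted). Over all genes tested, 0.0209% were called for fluoxetine, and 0% each for FA, the interaction and the 4 groups. The likelihood ratio test of edgeR and DESeq2 also called 0 of 10 in each comparison. Over all genes they called more, 0.313% and 0.487% for fluoxetine and 0.146% and 0.16% among the 4 groups, with 0% for FA and the interaction. At an unadjusted p of 0.05, fluoxetine passed 1 of the 10 genes (*Fosb*, lower) against 9.92% of all genes, and FA passed 0 of 10 against 5.08%. The interaction passed 2 of 10 (*Fos* and *Zfp36*) against 3.84%, and the test among the 4 groups passed 2 of 10 (*Fos* and *Fosb*) against 7.03%. Leaving out 1 dam moved these counts. The interaction then passed 2 to 5 genes, 5 without dam 5 of breeder diet + fluoxetine, and the 4 groups 0 to 3, with 0 without dam 6, 7, 9 or 13 of breeder diet + fluoxetine. The median log2 fold change of the 10 genes was -0.13 for fluoxetine, with 2 of 10 higher, beside 0.02 over all genes. For FA it was 0.28, with 9 of 10 higher, beside 0.02 over all genes. None of these 9, averaged over both injections, passed the unadjusted threshold. Without dam 3 of FA diet + fluoxetine *Jun* at -0.05 and *Junb* at -0.01 turned below 0. *Fosb* fell from 0.12 to 0.01, *Atf3* from 0.38 to 0.01 and *Egr1* from 0.54 to 0.32. *Nr4a1* fell from 0.84 to 0.66 and *Dusp1* from 0.32 to 0.25, while *Fos* rose from 0.43 to 0.49 and *Zfp36* from 0.02 to 0.04. The median of 0.28 thus rested in large part on this dam.

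**Figure D1:**
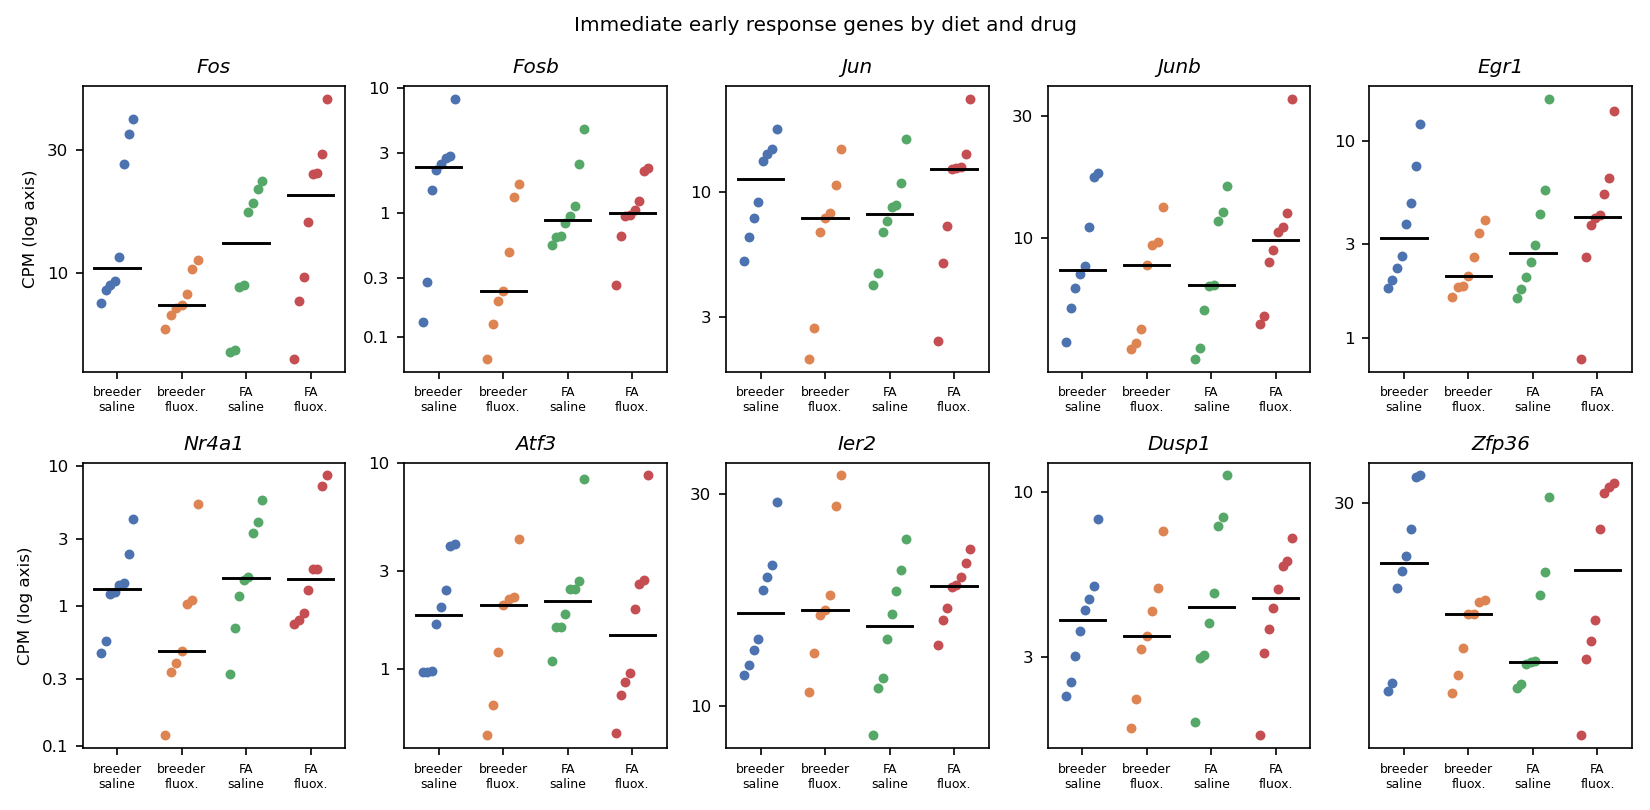
CPM of each gene in the 31 dams on a log axis, by diet and drug. Each point is a dam and each bar a group median. The groups overlap for every gene, and the 7 *Fos* values of breeder diet + fluoxetine lie together between 6.05 and 11.2 CPM while those of the other groups spread upward.

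*Fos* (chr12:85520658-85524047, plus strand) encodes the AP-1 subunit that must pair with a Jun protein to bind DNA. In breeder diet + saline dams it lay between 7.62 and 39.7 CPM with a median of 10.4. With fluoxetine on the same diet it lay between 6.05 and 11.2 CPM with a median of 7.46. The saline group split into 4 dams above the highest fluoxetine dam, at 11.5, 26.5, 34.7 and 39.7 CPM, and 4 dams within its range. FA diet + saline ran from 4.89 to 22.7 CPM with a median of 13.1, and FA diet + fluoxetine from 4.61 to 47.5 CPM with a median of 20.0. Both of these groups held dams below and dams well above the breeder diet + fluoxetine range. The interaction, which is the fluoxetine effect on the FA diet minus that on breeder diet, was 1.76 ± 0.62 (SE) on the log2 scale (adjusted p = 0.977, edgeR quasi-likelihood test). It passed an unadjusted p of 0.05. Leaving out dam 3 of the FA diet + fluoxetine group gave 1.86. The fluoxetine effect averaged over both diets was -0.28 ± 0.31 (adjusted p = 0.798).

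*Fosb* (chr7:19036621-19043976, minus strand), which encodes a relative of Fos with the same partners, was the least abundant of the genes and had the largest fitted difference. Breeder diet + saline dams ranged from 0.132 to 8.18 CPM with a median of 2.34, and breeder diet + fluoxetine dams from 0.0672 to 1.71 CPM with a median of 0.237. Of the 8 saline dams on this diet 5 exceeded every fluoxetine dam, and the groups overlapped in the other 3. On the FA diet the medians were 0.882 CPM with saline, over a range of 0.549 to 4.72, and 1.001 CPM with fluoxetine, over a range of 0.262 to 2.28. These FA groups overlapped almost entirely. Averaged over diets the fluoxetine effect was -1.19 ± 0.45 on the log2 scale (adjusted p = 0.416, edgeR quasi-likelihood test), which was past an unadjusted p of 0.05 but not the FDR. The interaction was 1.73 ± 0.90 (adjusted p = 0.977).

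*Jun* (chr4:94937271-94940459, minus strand) encodes the AP-1 subunit that can pair with itself or with Fos proteins. Its medians were 11.3 CPM with saline and 7.75 with fluoxetine on breeder diet, and 8.09 with saline and 12.5 with fluoxetine on the FA diet. The lowest dam, at 2.003 CPM, was in breeder diet + fluoxetine, and the highest, at 24.4 CPM, was dam 3 of FA diet + fluoxetine. *Junb* (chr8:85701113-85705359, minus strand), a Jun relative that activates more weakly, had medians of 7.52, 7.84, 6.56 and 9.82 CPM in the same order of groups. Its highest value, 34.9 CPM, was again in dam 3 of FA diet + fluoxetine, and the next highest, in breeder diet + saline, was 17.97 CPM. All 4 groups overlapped for both genes. The fluoxetine effect was -0.07 ± 0.28 for *Jun* and 0.09 ± 0.29 for *Junb*, and the *Junb* value changed sign to -0.16 without dam 3. Their interactions of 0.98 and 0.91 fell by the same omission, to 0.70 and 0.43, and neither passed an unadjusted p of 0.05 with or without the dam.

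*Egr1*, a zinc finger transcription factor and a classic target of MAP kinase signaling, had medians of 3.22 CPM with saline and 2.06 with fluoxetine on breeder diet, and of 2.72 with saline and 4.15 with fluoxetine on the FA diet. Single dams stood far above their groups, at 12.2 CPM in breeder diet + saline, 16.4 CPM in FA diet + saline and 14.3 CPM in dam 3 of FA diet + fluoxetine, whereas the 7 breeder diet + fluoxetine dams stayed between 1.61 and 4.01 CPM. *Nr4a1* (chr15:101151980-101172681, plus strand), which encodes an orphan nuclear receptor, had medians of 1.33, 0.477, 1.57 and 1.56 CPM in the same order. Its highest dams, at 8.56 and 7.22 CPM, were both in FA diet + fluoxetine. The groups overlapped for both genes. For FA the log2 fold change was 0.54 ± 0.35 for *Egr1* (adjusted p = 0.934) and 0.84 ± 0.47 for *Nr4a1* (adjusted p = 0.933). Without dam 3 they were 0.32 and 0.66. Other single dams moved them further, *Egr1* to 0.21 without dam 10 of FA diet + saline, and *Nr4a1* to 1.404 without dam 5 of breeder diet + fluoxetine, where it passed an unadjusted p of 0.05 but not the FDR (adjusted p = 0.947, edgeR).

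*Atf3* (chr1:190902493-190950241, minus strand), a member of the ATF/CREB family, is known as a stress response gene. Its medians lay close together, at 1.84 CPM (saline) and 2.06 (fluoxetine) on breeder diet and at 2.15 (saline) and 1.46 (fluoxetine) on the FA diet. In each FA group, 1 dam stood out, dam 3 of FA diet + saline at 8.43 CPM and dam 3 of FA diet + fluoxetine at 8.74 CPM. The FA effect of 0.38 ± 0.37 on the log2 scale (adjusted p = 0.950) was 0.01 without the latter dam. *Ier2* (chr8:85387960-85389483, minus strand) had medians of 16.2, 16.5, 15.2 and 18.6 CPM in the same order of groups and lay between 8.58 and 33.1 CPM over all dams. Its fluoxetine effect was 0.20 ± 0.15 (adjusted p = 0.687), with 95% limits of -0.11 and 0.51, so a change of over 1 log2 unit in either direction lay outside the interval.

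*Dusp1* (chr17:26724564-26781102, minus strand) encodes a phosphatase that inactivates MAP kinases and so limits the signal that induces the other genes. It lay between 1.69 and 11.3 CPM, with medians on breeder diet of 3.92 (saline) and 3.51 (fluoxetine) and on the FA diet of 4.31 (saline) and 4.62 (fluoxetine). *Zfp36* (chr7:28076209-28079710, minus strand) encodes tristetraprolin, which binds AU-rich elements in short-lived mRNAs and promotes their decay. Breeder diet + saline dams had 14.4 to 33.3 CPM of *Zfp36* with a median of 23.7, and breeder diet + fluoxetine dams had 14.3 to 20.5 with a median of 19.4. FA diet + saline dams had 14.6 to 30.6 CPM with a median of 16.1, and FA diet + fluoxetine dams 12.1 to 32.4 CPM with a median of 23.0. The breeder diet + fluoxetine values sat in the lower part of the saline range, with 1 dam just under it, and those of both FA groups overlapped. The interaction for *Zfp36* was 0.70 ± 0.28 on the log2 scale (adjusted p = 0.977, edgeR quasi-likelihood test), past an unadjusted p of 0.05, and was 0.75 without dam 3 of FA diet + fluoxetine. That for *Dusp1* was -0.16 ± 0.48 (adjusted p = 0.983).

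Within each diet, no gene of the 10 was called for fluoxetine by edgeR's quasi-likelihood test, and over all genes 0% were called on breeder diet and 0% on the FA diet. On breeder diet 9 of the 10 genes were lower with fluoxetine (median log2 fold change -0.39, beside 0.00 over all genes). There, *Fos* at -1.16 ± 0.46 and *Fosb* at -2.06 ± 0.68 passed an unadjusted p of 0.05, that is 2 of 10 against 4.39% of all genes, each with an adjusted p of 1.0. On the FA diet 7 of the 10 genes were higher with fluoxetine (median 0.27, beside 0.04 over all genes) and 0 of 10 passed, against 9.98% of all genes. *Fos* was there at 0.59 ± 0.43 (adjusted p = 0.660). The difference between the diets is the interaction. It was above 0 for 8 of the 10 genes, all but *Atf3* and *Dusp1*, with a median of 0.81 beside 0.03 over all genes, and it did not pass the FDR for any of them. Without dam 3 of FA diet + fluoxetine the same 8 stayed above 0. Those of *Egr1* (1.06 to 0.62), *Junb* (0.91 to 0.43), *Jun* (0.98 to 0.70), *Nr4a1* (0.68 to 0.31) and *Fosb* (1.73 to 1.52) fell. Those of *Fos*, *Zfp36* and *Ier2* rose. The 10 genes are not independent of each other, so these counts of direction carry no test. The interaction is equally the FA effect with fluoxetine minus that with saline. With fluoxetine, the FA effect was 1.31 ± 0.46 for *Fos* and 1.07 ± 0.52 for *Egr1*, past an unadjusted p of 0.05 but not the FDR. With saline it was -0.45 ± 0.43 and 0.003 ± 0.49, past neither. The share of all genes that passed was not taken for these comparisons, nor were they refitted without dam 3.

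**Figure D2:**
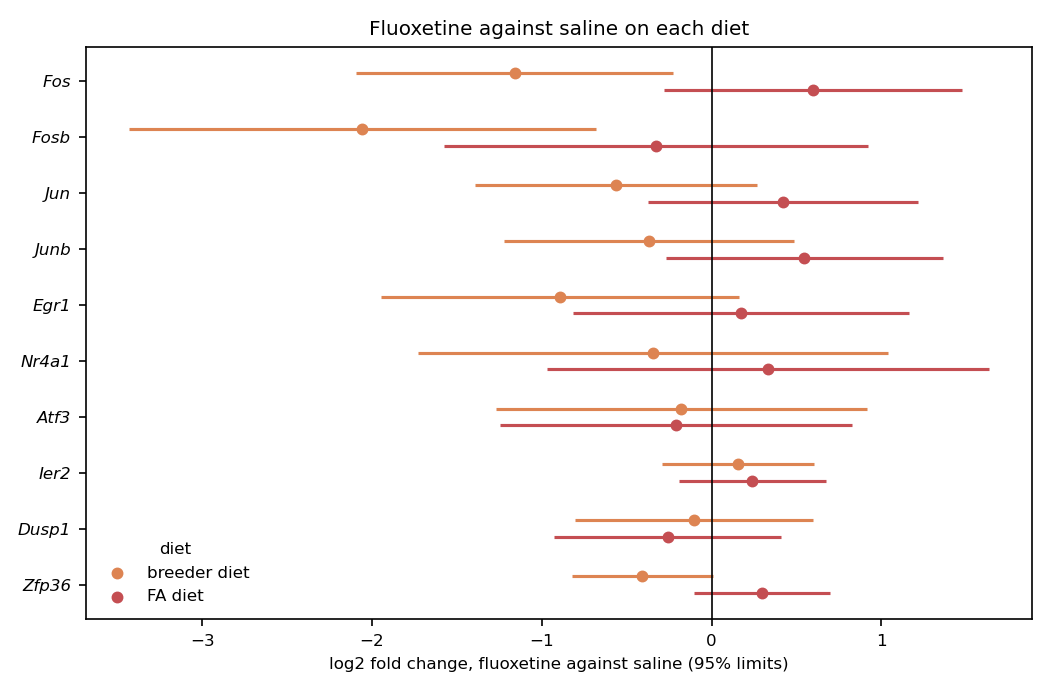
Log2 fold change of each gene for fluoxetine against saline, on breeder diet and on the FA diet, with 95% limits from the edgeR fit. On breeder diet the limits of *Fos* and *Fosb* lie below 0, from -2.09 to -0.23 and from -3.43 to -0.68, and on the FA diet the limits of all 10 genes include 0.

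Many of the genes rose and fell together between dams. Of the 45 pairs, 19 had a correlation of log2 CPM that passed an adjusted p of 0.05 over the 45 pairs (Pearson's r, two-sided permutation test with 100000 resamples), and all 19 were positive, with r of 0.42 or above. An r of 0.42 or above was reached by 6.35% of the 103126341 pairs among all genes tested. The median r of the 45 pairs was 0.37, and the middle of all gene pairs ran from -0.19 to 0.19. In deviations from the group means 17 pairs passed, 16 of them among the 19, and the median r was 0.38. The groups were not alike when taken by themselves, with 7 or 8 dams each and no test of the difference. The 19 pairs were picked for their r over these same dams, so positive r within groups is partly fixed by that choice. The 19 pairs had a median r of 0.74 in breeder diet + saline with none below 0, 0.59 in FA diet + saline with 1 below 0 and 0.54 in FA diet + fluoxetine with 1 below 0. In breeder diet + fluoxetine the median r was 0.18, and 7 of the 19 pairs were below 0, down to -0.31 for *Junb* and *Egr1*. Of these 7 pairs 5 included *Egr1*. Without dam 3 of FA diet + fluoxetine 17 pairs passed. Without the 2 dams farthest from the median in either gene, 17 of the 19 pairs kept an r above 0.35. The lowest was 0.29, for *Egr1* and *Nr4a1*.

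The strongest pair was *Fosb* and *Jun*, with r = 0.71 (n = 31 dams, permutation p = 1e-05, the smallest the resamples can give, adjusted p = 0.00045) and Spearman's rho = 0.70. It held in deviations from group means (r = 0.69), without the 2 dams farthest from the median of *Fosb* (r = 0.64) and in each group by itself, with r between 0.69 and 0.85. *Fos* and *Zfp36* followed at r = 0.69 (permutation p = 3e-05, adjusted p = 0.000675, rho = 0.63). For this pair r was 0.73 without the 2 dams farthest in *Fos* and 0.61 without the 2 farthest in *Zfp36*. Within groups this pair ranged from 0.18 in breeder diet + fluoxetine to 0.85 in breeder diet + saline. *Egr1* and *Dusp1* had r = 0.62 (permutation p = 0.00022, adjusted p = 0.00247, rho = 0.62), with r of 0.62 to 0.81 in 3 groups and -0.13 in breeder diet + fluoxetine. *Jun* and *Junb* had r = 0.61 (permutation p = 0.00028, adjusted p = 0.00252, rho = 0.60), and r = 0.54 without dam 3 of FA diet + fluoxetine.

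**Figure D3:**
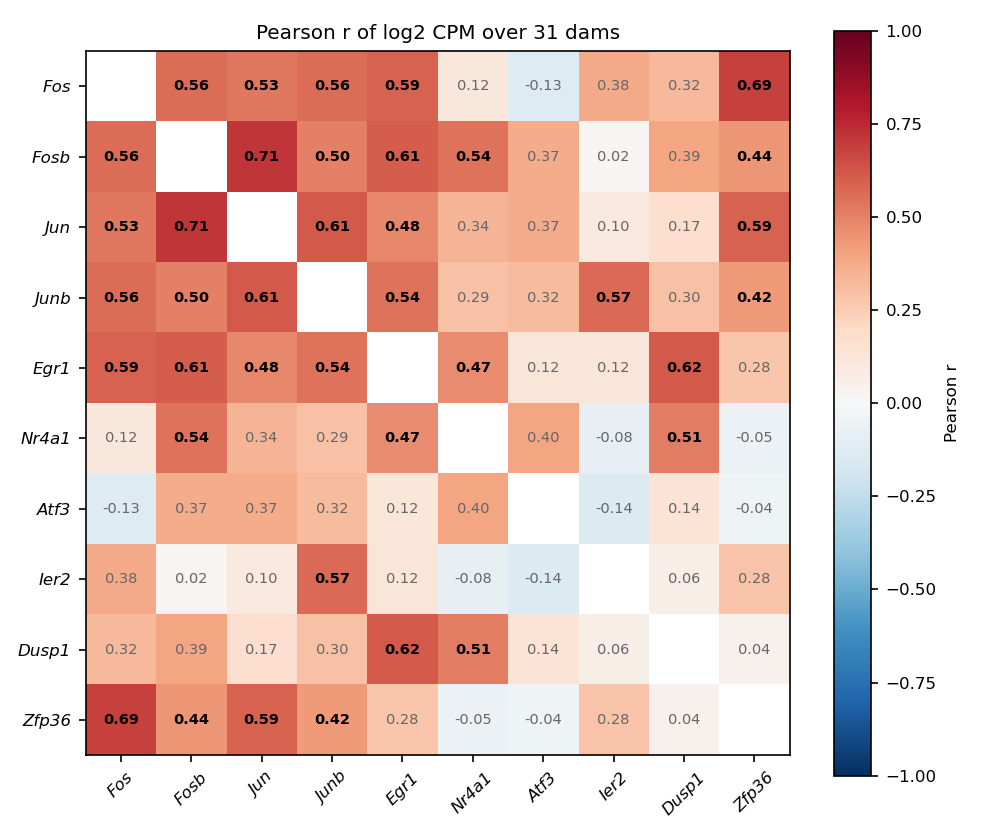
Pearson's r of log2 CPM over 31 dams for each pair of the 10 genes. Bold values passed an adjusted p of 0.05, and these 19 pairs join mainly the AP-1 subunits, *Egr1* and *Zfp36*, while *Atf3* has none and *Ier2* has 1.

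The co-variation was uneven over the set. *Fosb*, *Junb* and *Egr1* each passed with 6 of their 9 partners, *Fos* and *Jun* with 5, *Zfp36* with 4, *Nr4a1* with 3 and *Dusp1* with 2. *Ier2* passed with *Junb* alone (r = 0.57, permutation p = 0.00091, adjusted p = 0.0049). *Atf3* passed with none, and its r with *Fos* was -0.13 (permutation p = 0.492, adjusted p = 0.633). *Fos* and *Fosb*, each with a CArG box in the window shown, had r = 0.56 (permutation p = 0.00107, adjusted p = 0.0049). *Ier2* and *Dusp1*, each with the cAMP response element in the window shown, had r = 0.06 (permutation p = 0.766, adjusted p = 0.822). *Fosb* and *Jun*, each with an EGR site in its window, had r = 0.71. *Fos*, *Junb* and *Nr4a1*, with TATAAA, had r of 0.12 to 0.56 among themselves. No link between motif and r was tested. A first principal component of the 10 genes held 43.0% of their standardized variance and a second 18.7%. The loadings on the first all had the same sign, from 0.15 for *Ier2* to 0.40 for *Fosb*. The second set *Nr4a1* (0.48) and *Atf3* (0.42) against *Ier2* (-0.44), *Zfp36* (-0.40) and *Fos* (-0.33).

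**Figure D4:**
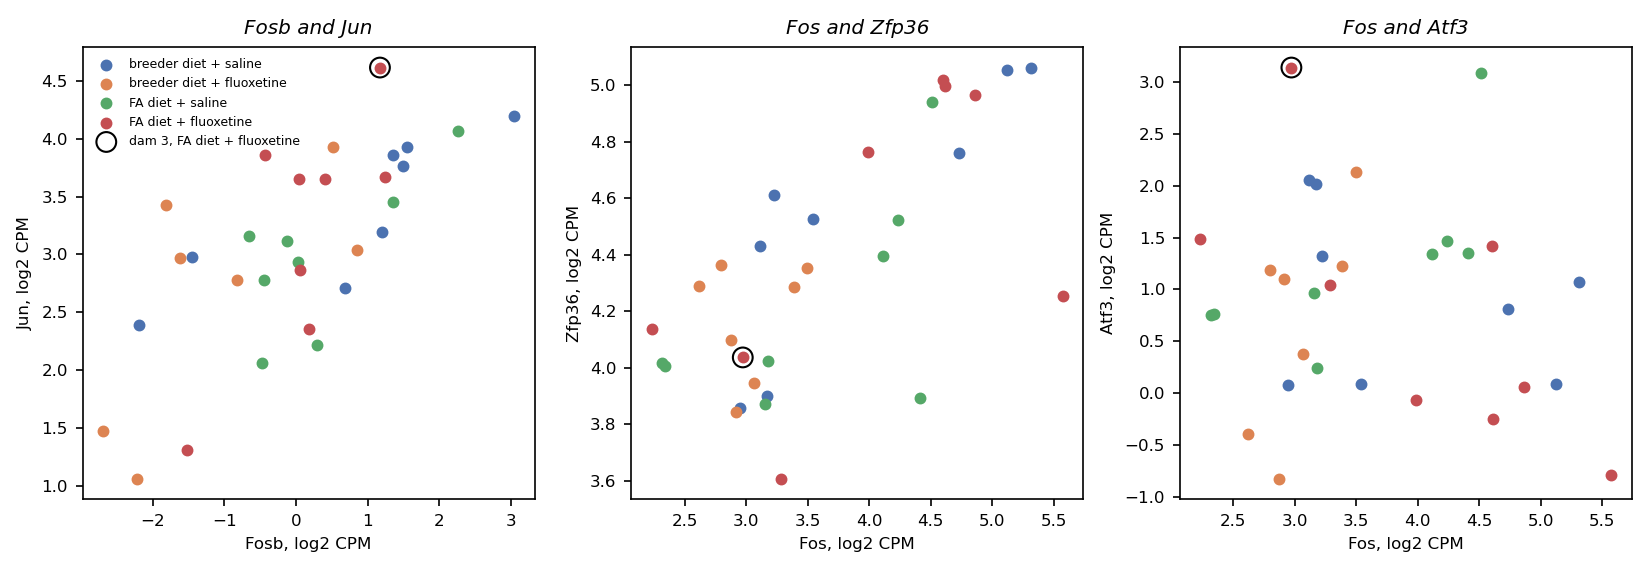
Log2 CPM of *Fosb* and *Jun*, *Fos* and *Zfp36*, and *Fos* and *Atf3* in the 31 dams, colored by group, with dam 3 of FA diet + fluoxetine circled. Over all dams the first 2 panels rise together (r = 0.71 and 0.69) and the third does not (r = -0.13). In the second panel the breeder diet + fluoxetine dams are bunched at low *Fos*, with r = 0.18 among themselves.

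By dam, the mean of the 10 standardized log2 CPM was highest in dam 4 of breeder diet + saline (1.30 SD, with 9 of 10 genes above their median), dam 3 of FA diet + fluoxetine (1.10), dam 3 of FA diet + saline (1.04) and dam 12 of breeder diet + saline (0.71). It was lowest in dams 13 and 6 of breeder diet + fluoxetine (-1.05 and -0.91), dam 2 of FA diet + saline (-0.84) and dam 10 of breeder diet + saline (-0.79). High and low dams thus came from several groups. The high dams did not share 1 profile. Dam 4 of breeder diet + saline had 34.7 CPM of *Fos* and 8.18 of *Fosb* with 0.973 of *Atf3*. Dam 3 of FA diet + fluoxetine had the highest *Jun*, *Junb* and *Atf3* but 7.76 CPM of *Fos*, under the median of 9.66 over all dams. Dam 3 of FA diet + saline was high in *Fosb* (4.72), *Atf3* (8.43) and *Dusp1* (11.3). The group means of this score on breeder diet were 0.17 with saline and -0.42 with fluoxetine, and on the FA diet -0.01 with saline and 0.21 with fluoxetine, with SDs of 0.51 to 0.71 between dams, and the groups overlapped.

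**Figure D5:**
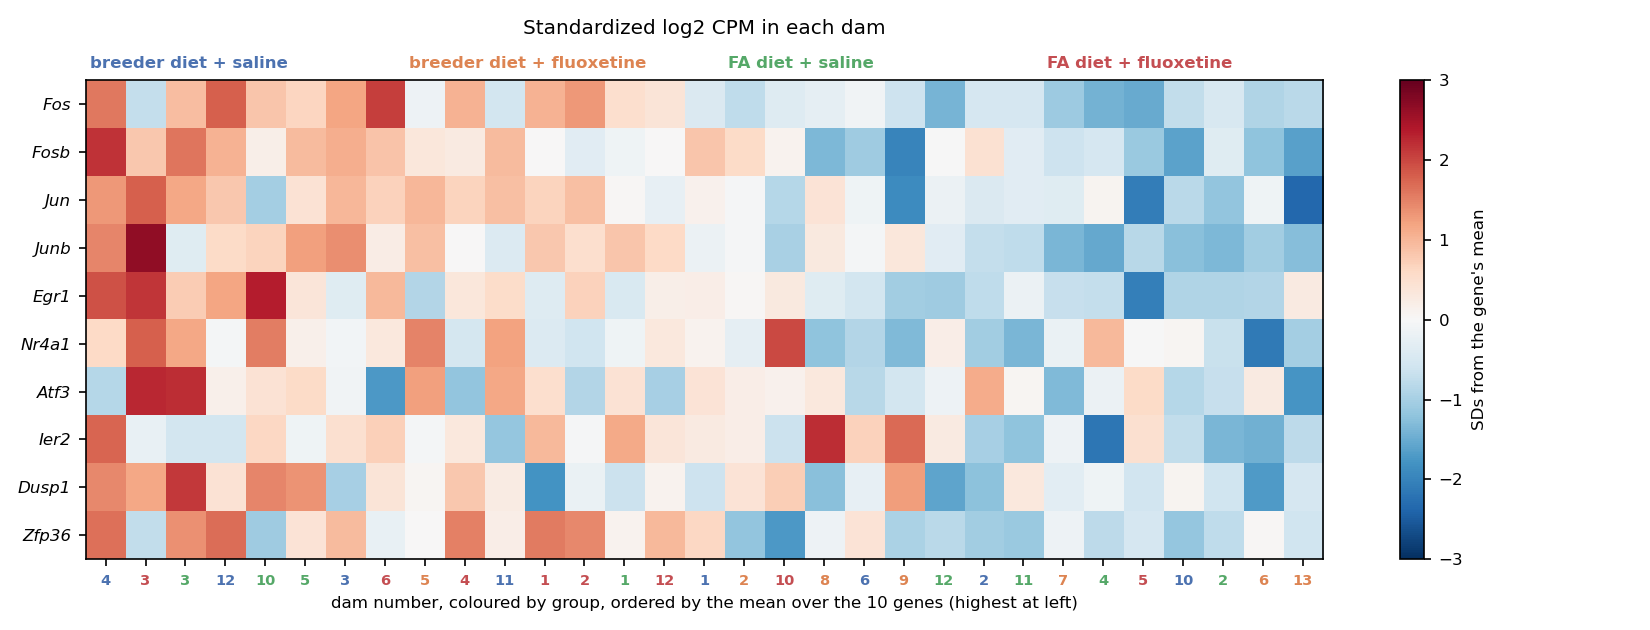
Standardized log2 CPM of the 10 genes (rows) in the 31 dams (columns), with dams ordered by their mean over the genes and dam numbers colored by group. The left end holds dam 4 of breeder diet + saline (1.30 SD) and the right end dam 13 of breeder diet + fluoxetine (-1.05 SD).

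The genes were set beside library measures and marker lists, as 150 relations adjusted together. No relation passed with total count (r of the 10 genes between -0.13 and 0.31) or with the share of the 20 most abundant genes (-0.42 to 0.15). Without dam 3 of FA diet + fluoxetine, r with that share went from -0.42 to -0.17 for *Egr1* and from -0.35 to 0.18 for *Junb*. None passed with the secretory epithelium list (-0.48 to 0.07) or with any of the 8 other cell type lists. For 16 heat shock genes r lay between -0.29 and 0.37, and for 14 hypoxia response genes between -0.49 and 0.42, and none passed. The 2 relations that passed were with the mean of the other immediate early genes, for *Atf3* (r = 0.64, n = 31, permutation p = 0.00014, adjusted p = 0.021) and for *Jun* (r = 0.58, permutation p = 0.00058, adjusted p = 0.0435). Without dam 3 of FA diet + fluoxetine r was 0.53 and 0.51, and in deviations from group means 0.69 and 0.56, where the relation of *Jun* no longer passed (permutation, adjusted p = 0.053). In Spearman's rho, at 0.56 and 0.54, neither passed (permutation, adjusted p = 0.129 for both). Signaling in the living gland and events at tissue collection cannot be told apart from these values.

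A list of 40 other immediate early genes had 34 past the filter, and edgeR's quasi-likelihood test called 0 of 34 at the FDR for fluoxetine, FA or the interaction, with 1, 3 and 2 at an unadjusted p of 0.05 beside 9.92%, 5.08% and 3.84% of all genes. The smallest p for fluoxetine was that of *Sgk1*, a kinase induced by glucocorticoids, at -0.66 ± 0.25 on the log2 scale (adjusted p = 0.409), followed by *Plk2* (0.41), *Dusp6* (0.26) and *Dusp4* (0.82), which were past no threshold. For FA it was *Pim1*, a kinase gene, at -0.65 ± 0.20 (adjusted p = 0.933), and then *Klf4*, a transcription factor gene, at 0.71 ± 0.26 (adjusted p = 0.933). Of these 34 genes 28 had an r above 0 with the mean of the 10 genes, with a median of 0.17 beside -0.01 over all other genes tested. *Ccn1* (0.64), *Socs3* (0.55), *Btg2* (0.53), *Gadd45b* (0.49) and *Rhob* (0.46) had the highest r. *Jund*, the Jun gene that is expressed without induction, had 0.06, and *Dusp6* had -0.28.

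The 32 genes listed for the signaling upstream, from *Egfr* through Ras, Raf and MAP kinases to *Srf*, the *Elk* genes and *Creb1*, all passed the filter, and their median r with the mean of the 10 genes was -0.02. The quasi-likelihood test called 0 of 32 in any comparison. At an unadjusted p of 0.05, 6 of 32 passed for fluoxetine, 1 for FA and 2 for the interaction. Of all genes tested 9.92%, 5.08% and 3.84% passed. For fluoxetine the 4 smallest p were those of *Braf* (-0.36 ± 0.13), *Nras* (0.22 ± 0.09), *Egfr* (-0.26 ± 0.12) and *Mapk3* (0.31 ± 0.14), with adjusted p of 0.391 to 0.478. For FA they were those of *Hras* (0.17 ± 0.08) and *Map2k7* (-0.19 ± 0.10). Among 16 heat shock genes, chaperones that rise with protein damage, 0 were called and *Hsp90aa1* had the smallest p for fluoxetine (0.25 ± 0.12, adjusted p = 0.496), with *Hspe1* at 0.12, *Hspa8* at 0.14 and *Dnajb1* at -0.12. For FA the smallest were *Hspa8* (0.40 ± 0.11, adjusted p = 0.933) and *Hspa1a* (0.68 ± 0.36). Among the 14 hypoxia response genes 0 were called. *Ddit4* was at -0.63 ± 0.27 for fluoxetine (adjusted p = 0.461), with *Pdk1* at -0.21, *Bnip3* at -0.23 and *Egln3* at -0.18, and for FA *Vegfa* was at -0.32 ± 0.14 (adjusted p = 0.933) and *Egln3* at 0.33 ± 0.16 (adjusted p = 0.933).

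Over the 31 dams, the genes outside the set whose log2 CPM most resembled the mean of the 10 genes were *Phc1* (r = 0.76), *Epb41l4a* (0.68), *Ccn1* (0.64), *Lynx1* (0.64), *Tgif1* (0.61), *Socs1* (0.60), *Gm10524* (0.59), *Zfp462* (0.59), *Kif22* (0.57) and *Zfp493* (0.57). They were picked as the highest of 14352, so their r is a description only. Several were low, with mean CPM of 0.26 for *Socs1*, 0.38 for *Zfp493*, 0.55 for *Gm10524*, 0.83 for *Epb41l4a* and 0.88 for *Zfp462*. The others had means of 1.25 to 4.99 CPM. In deviations from group means r was 0.72 for *Phc1* and 0.66 for *Ccn1*, and leaving out dam 3 of FA diet + fluoxetine gave 0.73 and 0.59.

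Genes on the opposite strand overlap *Jun*, *Junb*, *Dusp1*, *Nr4a1* and *Zfp36* in the annotation, and the strand setting of the counting is not given in the sources used here. *Junos*, opposite *Jun*, had up to 3.27 CPM and an r of 0.69 with *Jun* over the 31 dams. Whether reads of these 2 genes were fully separated was not tested. *Prdx2*, opposite *Junb*, lay between 38.0 and 66.5 CPM with an r of -0.08, and *Ergic1*, opposite *Dusp1*, between 10.1 and 21.1 CPM with an r of 0.06. The overlapping genes of *Nr4a1* and *Zfp36* were not measured or did not pass the filter.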

How the data were processed

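Per the labels and the study's methods, polyadenylated RNA was sequenced in paired ends on a NovaSeq. The authors checked reads with FastQC 0.11.7, trimmed them with Trim Galore 0.4.4, mapped the pairs with HISAT2 (GRCm39) and obtained gene counts with HTSeq. The annotation release and strand option are not given in the sources used here. The deposited values are raw whole-number counts for 55379 Ensembl genes in each of 31 libraries. Group sizes follow the labels, which differ from the methods text for both fluoxetine groups.

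Counts were analyzed in R 4.3.3 with edgeR 4.0.16. filterByExpr by group removed 41017 genes, libraries were scaled by TMM, and a robust 4-group model was tested with the quasi-likelihood test, with contrasts for fluoxetine, FA and their interaction (Benjamini-Hochberg over 14362 genes, FDR of 10%). The study's likelihood ratio test and DESeq2 1.42.0 were alternatives. Log2 CPM carry a prior count of 2. Standard errors come from the fold change and F statistic. RPKM use the GENCODE vM39 canonical transcript length. Correlations used 100000 resamples. Scripts were checked on data with known answers. The 10 genes, the lists and the tests were chosen with earlier results of these data known. The genes named are the 10 members, from each list of pathway genes the 4 smallest p for fluoxetine and 2 for FA, and the 10 most alike genes, while list genes named for their r were chosen after their values were seen. Total counts of 15412542 to 36000439 gave at least 1 read for each of the 10 genes in each library, and p-values measure the spread between dams. The main fit used no block and did not take same animal numbers in different groups as pairs, and a fit with the number as a block was an alternative.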

Additional observations from a re-analysis of the deposited data

Results flagged for a closer look

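Each gene was examined in each of the 4 groups, 40 sets in all, for a dam far from the rest of its group on the log2 CPM scale by Dixon's ratio, and 1 set had such a dam. Dam 3 of FA diet + saline had 8.43 CPM of *Atf3*, and the nearest of the 7 other dams had 2.68 CPM, a ratio of 0.568 against a critical value of 0.526 for 8 samples. Chance gives about 1 such set in 20, so 1 in 40 is no excess. The same dam was among the 3 highest in the mean of the 10 genes.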

How the results depend on the processing

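In 31 fits that each left out 1 dam, 0 of the 10 genes were called for fluoxetine, FA, the interaction or among the 4 groups. The same held under 10 alternative settings for fluoxetine and FA and under 9 for the other comparisons, to which the additive model does not apply. None of the 20 fluoxetine and FA fold changes passed the FDR of 10% in any of these fits, and 7 of the 20 never changed sign. The interaction values under these settings were added after the data were seen. Leaving out 1 dam, *Fosb* for fluoxetine lay between -1.46 and -0.92, *Fos* for the interaction between 1.45 and 1.91 and *Zfp36* between 0.62 and 0.84, each past an unadjusted p of 0.05 in 31 of 31 fits but not with the block. FA passed 1 gene in place of 0 in 3 of these fits, those without dam 5 of breeder diet + fluoxetine or without dam 4 or 11 of breeder diet + saline.

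Values near 0 changed sign. Leaving out 1 dam, fluoxetine values ran from -0.56 to 0.058 for *Atf3* (above 0 without dam 3 of FA diet + saline), -0.21 to 0.037 for *Jun*, -0.16 to 0.19 for *Junb*, -0.57 to 0.19 for *Nr4a1* and -0.096 to 0.011 for *Zfp36*. FA values ran from -0.15 to 0.39 for *Fosb*, -0.046 to 0.23 for *Jun*, -0.0081 to 0.34 for *Junb* and -0.044 to 0.070 for *Zfp36*. Interaction values ran from -0.76 to 0.48 for *Atf3*, -0.36 to 0.087 for *Dusp1* and -0.057 to 0.27 for *Ier2*. The additive model gave 0.016 for *Nr4a1* for fluoxetine. The filter at 1 CPM in 7 libraries gave 0.0015 for *Nr4a1* for fluoxetine and 0.0024 for *Atf3* for the interaction.

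Animal numbers recur across groups. The deviations of 28 same-number pairs had a median r of 0.08, with 12 over 0.1 and the lowest at -0.22. Those of 332 different-number pairs had a median r of -0.007, with 74 over 0.1 and the lowest at -0.41. The sources used here do not say what the numbers stand for, and the main fit did not take them as pairs. With the number as a block, 15 residual degrees of freedom remained, 0 genes were called and 0 passed an unadjusted p of 0.05. *Fosb* for fluoxetine was then at -0.41, against -1.19 without the block, and the interactions of *Fos* and *Zfp36* were at 1.39 and 0.56. Fluoxetine values changed sign to 0.31 for *Jun*, 0.17 for *Atf3*, -0.00033 for *Ier2* and 0.65 for *Nr4a1*. FA values changed sign to -0.41 for *Fosb*, -0.27 for *Jun*, -0.017 for *Junb*, -0.50 for *Atf3*, 0.014 for *Ier2*, -0.029 for *Nr4a1* and -0.030 for *Zfp36*. The interaction of *Nr4a1* became -0.48. The cause was not tested.

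The count of 19 correlated pairs lay between 16 and 25 under the alternatives, 25 being with the block, and between 17 and 22 without 1 dam. The block left 15 residual degrees of freedom, and the permutation of its deviations did not allow for that loss. Its p-values are therefore too small, and the 25 cannot be read as stronger co-variation. The lowest libraries of *Fosb* and *Nr4a1* held 1 and 2 counts. The biological coefficient of variation, the spread between dams apart from counting noise, was also largest for these genes, at 0.82 and 0.86. Among the other 8 genes it lay between 0.28 for *Zfp36* and 0.69 for *Atf3*. How far reads or spread limit each gene was not tested.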
